A study of Mus musculus with 8 samples.

Results

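The small leucine-rich proteoglycans are secreted matrix proteins with a compact core of leucine-rich repeats. The 8 genes described here are Dcn (decorin), Bgn (biglycan), Aspn (asporin), Lum (lumican), Fmod (fibromodulin), Prelp, Ogn (osteoglycin) and Podn (podocan). They were chosen by symbol from the 28918 genes of the deposited expression table, all 8 were found, and 7 of the 8 passed the filter on low values with 13726 genes in all. Polyadenylated RNA was sequenced from whole subcutaneous tumors of B16mhgp100, a mouse B16 melanoma line that carries the gp100 antigen, grown in C57BL/6 mice. One group of 3 tumors over-expressed Colq, the collagen-like tail that anchors acetylcholinesterase in the basement membrane of the neuromuscular junction, and gave 3 libraries. The other 3 tumors carried the vector alone and gave 5 libraries, since 2 of these tumors were each divided into 2 sequenced portions. Mice of both groups received anti-PD1, an antibody against a T cell checkpoint receptor, in 4 doses of 200 µg, 2 a week, beginning on day 10 of tumor growth, with harvest on day 1 after the final dose. No tumor without the antibody was analysed here, and the labels give neither the promoter that drives Colq nor whether a line was a single clone. The labels number the tumors but name no mice, so the p-values measure the spread between these tumors. The 3 Colq libraries differed from one another less than portions of a single vector tumor did, and whether they are separate tumors, as labelled, cannot be settled from TPM. Every SD, n and p-value for Colq tumors rests on that label. Portions of a tumor were averaged, so each comparison set 3 tumors against 3.

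Small leucine-rich proteoglycans bind collagen fibrils through their concave face and limit how fibrils fuse and thicken. Most carry chondroitin or dermatan sulfate chains (Dcn, Bgn) or keratan sulfate chains (Lum, Fmod), while Aspn and Prelp are usually without such a chain. Outside the fibril they bind growth factors and receptors: decorin binds TGF-beta and the receptors Egfr and Met, and soluble biglycan is a ligand of Tlr2 and Tlr4. In skin and around tumors they are made mainly by fibroblasts. Several of the genes lie side by side: in the RefSeq order Dcn and Lum are neighbours on chromosome 10, Aspn and Ogn are separated only by the relative Omd on chromosome 13, and Prelp and Fmod are neighbours on chromosome 1.

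RefSeq's promoter table for GRCm38.p6 held 6 of the 8 genes, without Dcn and Lum. The upstream stretches of 3 of them are printed because they belong to the gene with the largest rise by ratio (Ogn), to its chromosomal neighbour whose groups overlapped (Aspn), and to the most abundant gene that was lower (Bgn). Each is the 250 bases before the start that RefSeq annotates on the plus strand, at chr13:49607765-49608014 for Ogn, chr13:49544193-49544442 for Aspn and chrX:73483351-73483600 for Bgn. Capitals mark matches, on either strand, to the TATA box letters TATAAA and the GC box letters GGGCGG.
Ogn: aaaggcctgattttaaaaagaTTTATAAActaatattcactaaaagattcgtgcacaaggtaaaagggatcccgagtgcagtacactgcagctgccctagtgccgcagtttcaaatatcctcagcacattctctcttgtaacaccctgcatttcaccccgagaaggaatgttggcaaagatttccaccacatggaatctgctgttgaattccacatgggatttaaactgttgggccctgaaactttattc
Aspn: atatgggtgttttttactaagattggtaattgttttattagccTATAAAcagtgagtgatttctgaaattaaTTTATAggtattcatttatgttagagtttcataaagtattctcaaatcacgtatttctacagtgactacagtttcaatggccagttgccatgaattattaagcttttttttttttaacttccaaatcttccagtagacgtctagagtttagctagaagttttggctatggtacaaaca
Bgn: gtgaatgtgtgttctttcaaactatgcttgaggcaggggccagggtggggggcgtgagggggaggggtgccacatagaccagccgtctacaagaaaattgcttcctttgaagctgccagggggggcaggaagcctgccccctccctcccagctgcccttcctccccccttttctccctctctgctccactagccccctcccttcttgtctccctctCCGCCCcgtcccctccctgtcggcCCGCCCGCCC
Ogn and Aspn each held 2 TATAAA matches and 0 GGGCGG matches, the pair in Ogn overlapping on opposite strands. Bgn held 3 GGGCGG matches, of which the last 2 overlap, and 0 TATAAA matches. Over 32817 promoter stretches of the same length, 12.4% held TATAAA and 32.7% GGGCGG. The GC content was 42% for Ogn, 30% for Aspn and 64.4% for Bgn, where the median stretch had 52.4%. The TATAAA matches begin 229 and 227 bases before the RefSeq start in Ogn and 207 and 178 bases before it in Aspn. The bases that follow that start were found within a GENCODE transcript of Aspn but not, as an unbroken run, in one of Ogn or Bgn, so distances from the start hold for the RefSeq annotation.

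The proteoglycan transcripts did not move together. Dcn, Lum and Ogn were 4.85, 4.25 and 8.11 times as abundant in Colq tumors as in vector tumors, by the ratio of mean TPM (the length-normalised share of transcripts). Bgn stood at 0.498 times its vector level, while Aspn and Podn overlapped between groups. Fmod, the least abundant member in Colq tumors, stood at 0.105 times its vector level but was too low to enter the test. By limma on log2(TPM + 1) with Benjamini-Hochberg adjustment over all genes tested, 3 of the 7 tested members rose and 2 fell at an adjusted p under 0.05. Ogn, among the 3, entered the test only through its level in Colq tumors. Of all tested genes 70.9% passed, with 11.3% that rose and 59.6% that fell. The lower side is therefore the common one on deposited TPM, and the median log2 fold change of all genes was -0.50. After median-of-ratios size factors, which put that median near 0, 4 members rose (Dcn, Lum, Ogn and Aspn) and 1 fell (Bgn), where 53.9% of all genes passed, 28.3% upward and 25.6% downward. Quantile normalization gave the same counts of members, 4 and 1, against 23.2% and 30.6% of all genes (53.7% together). With the dependence on gene length and base composition removed by loess 3 members rose and 0 fell, against 18.9% and 26.5% of all genes (45.4% together). In bulk tissue fewer cells of a type and less RNA per cell cannot be told apart.

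**Figure D1:**
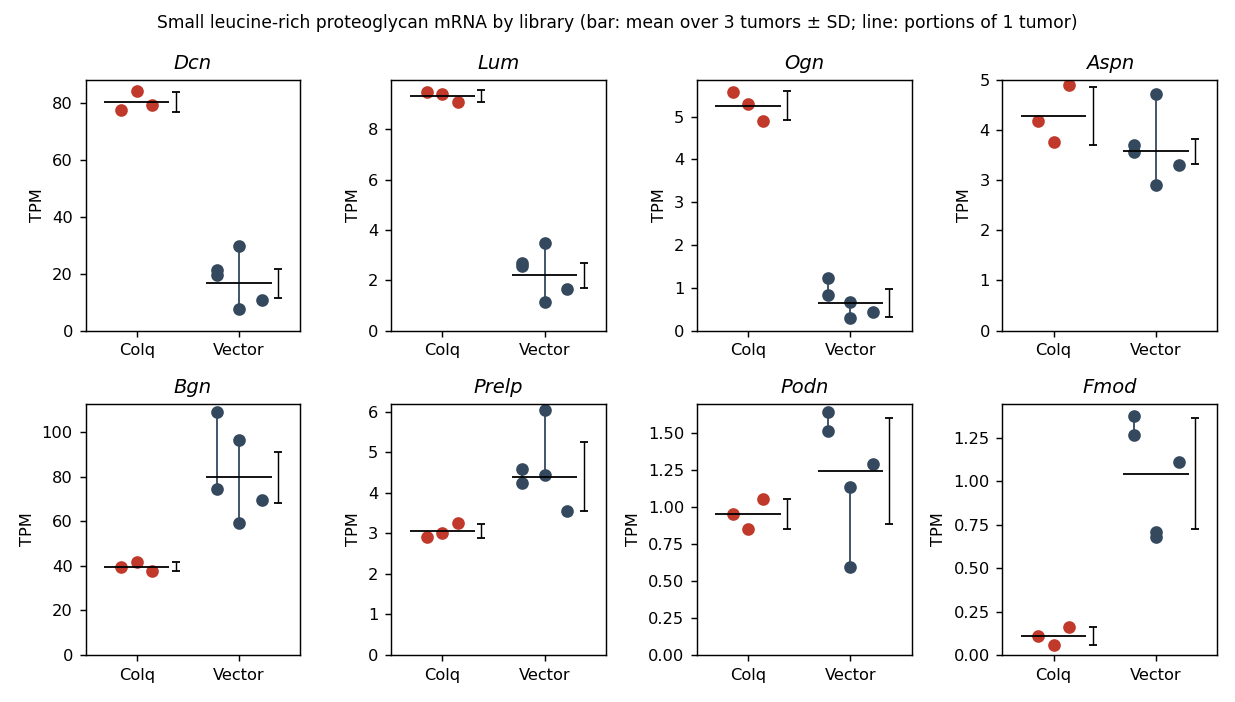
TPM of each of the 8 members (y axis, linear from 0) in the 3 Colq and 5 vector libraries; points are libraries, a line joins the portions of 1 tumor, and bars give the mean over 3 tumors with its SD. Dcn, Lum and Ogn are higher in every Colq library, Bgn, Prelp and Fmod are lower in every one, and Aspn and Podn overlap. Tumors of the groups did not overlap in 74.7% of all tested genes.

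Among the members with sulfated chains, Dcn, the prototype of the family, had the highest level in Colq tumors. Levels of Dcn were 77.5, 84.4 and 79.4 TPM in the Colq libraries, against 21.3 and 19.4 TPM in the portions of vector tumor 1, 29.6 and 7.65 TPM in those of vector tumor 2 and 10.7 TPM in vector tumor 3. Every Colq library lay above every vector library, and the vector libraries varied far more than the Colq libraries. Such separation, here and in the members below, was common: tumors of the groups did not overlap in 74.7% of all tested genes. The share by library was not counted. The tumor means were 80.4 ± 3.55 TPM in Colq tumors, against 16.6 ± 5.13 TPM in vector tumors (SD, n = 3 each), a log2 fold change of 2.35 (SE 0.20; limma, adjusted p = 4.6e-05). It was 2.90 after size factors and 2.66 with the trend on gene length and GC content removed, and it passed on each scale tried. The authors' deposited table gives Dcn a log2 fold change of 2.83.

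Lum, a keratan sulfate member that organises fibrils in cornea and skin, showed the same direction as its chromosomal neighbour. The Colq libraries held 9.49, 9.41 and 9.07 TPM of Lum, against 2.55 and 2.69, 3.48 and 1.13, and 1.66 TPM in vector tumors 1, 2 and 3. The lowest Colq library was above the highest vector library. The log2 fold change was 1.74 (SE 0.14; adjusted p = 3.8e-05), and 2.20 after size factors. Dcn and Lum kept a similar proportion: Dcn was 8.63 ± 0.41 times Lum in Colq tumors and 7.44 ± 0.86 times Lum in vector tumors (SD, n = 3 each; exact two-sided permutation p = 0.1, the smallest that 3 against 3 allows). By tumor the ratio was somewhat higher in the Colq group without overlap (8.17 to 8.97, against 6.47 to 8.08), while the libraries of the groups overlapped in this ratio.

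Ogn, a small member of the family first known from bone, had rank 4 of the 8 by level in Colq tumors and rank 8 in vector tumors. Its levels were 5.58, 5.29 and 4.90 TPM in the Colq libraries, against 0.84 and 1.22, 0.66 and 0.29, and 0.44 TPM in vector tumors 1, 2 and 3. The groups were apart, with the vector libraries near the floor of the filter of 1 TPM. Ogn entered the test only through its level in Colq tumors, a mean of 5.26 TPM, against 0.648 TPM in vector tumors. Without the filter limma gave it an adjusted p of 0.00051. The log2 fold change was 1.95 on log2(TPM + 1), a scale that understates changes of low genes (SE 0.18; limma, adjusted p = 6.2e-05), and 2.96 with a pseudocount of 0.1. The authors' deposited table gives 3.57. Aspn, a chainless member that also lies on chromosome 13, did not pass on deposited TPM. The Colq libraries held 4.17, 3.76 and 4.90 TPM of Aspn, against 3.55 and 3.69, 4.71 and 2.90, and 3.31 TPM in vector tumors 1, 2 and 3. The libraries overlapped, and the log2 fold change was 0.21 (SE 0.13; adjusted p = 0.18). Aspn rose by 0.67 with size factors (limma, adjusted p = 0.0048) and by 0.54 under quantile normalization (adjusted p = 0.015), but stood at 0.0043 with the length and GC trend removed (adjusted p = 0.98). All 3 scales put the median of all genes near 0. The authors' deposited table gives 0.81 for Aspn with an adjusted p of 0.0018 (DESeq2), so Aspn passes there, unlike on deposited TPM. The ratio of Ogn to Aspn was 1.25 ± 0.22 in Colq tumors and 0.181 ± 0.090 in vector tumors (SD, n = 3 each; exact two-sided permutation p = 0.1).

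Bgn, the closest relative of decorin and the most abundant member in vector tumors, went the other way. Levels of Bgn were 39.5, 41.8 and 37.9 TPM in the Colq libraries, against 109.2 and 74.5, 96.6 and 59.4, and 69.4 TPM in vector tumors 1, 2 and 3. No Colq library reached the lowest vector library. The means were 39.7 ± 1.96 TPM in Colq tumors, against 79.7 ± 11.3 TPM in vector tumors (SD, n = 3 each), a log2 fold change of -0.96 (SE 0.10; limma, adjusted p = 0.00013). Relative to the median of all genes the difference was smaller: -0.39 with size factors (adjusted p = 0.020), -0.49 under quantile normalization (adjusted p = 0.0086), and -0.28 with the length and GC trend removed, where the call was lost (adjusted p = 0.053). The authors' deposited table gives -0.47 for Bgn. In the GENCODE annotation of GRCm38 the merged exons of Bgn span 6099 bases and those of Dcn 5838 bases. The longest transcript of Bgn has 51.2% GC and that of Dcn 37.4% GC. The 2969 tested genes within 1.25 times the length of Bgn had a median log2 fold change of -0.67, and the 3046 around Dcn one of -0.66.

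Fmod, which shares keratan sulfate chains and collagen binding with lumican, was the lowest member in Colq tumors. The Colq libraries held 0.11, 0.06 and 0.16 TPM, against 1.27 and 1.38, 0.68 and 0.71, and 1.11 TPM in vector tumors 1, 2 and 3. All Colq libraries lay below all vector libraries, at levels where TPM with 2 decimals says little of precision. Its mean of 0.577 TPM over the 6 tumors kept it out of the main test. The difference on log2(TPM + 1) was -0.87 (exact two-sided permutation p = 0.1) and -2.43 with a pseudocount of 0.1. Without the filter limma gave Fmod an adjusted p of 0.0030, and the authors' deposited table gives a log2 fold change of -2.67. Prelp, which lies beside Fmod and binds both collagen and heparan sulfate, had 2.92, 3.01 and 3.26 TPM in the Colq libraries, against 4.58 and 4.23, 4.45 and 6.03, and 3.54 TPM in vector tumors 1, 2 and 3. The groups did not overlap, which held for 74.7% of all tested genes, and the log2 fold change was -0.39 (SE 0.15; adjusted p = 0.042). That call is a weak one. It was lost after size factors, where the value was 0.057 (adjusted p = 0.76), and when any single tumor other than vector tumor 3 was left out (adjusted p between 0.073 and 0.12). The authors' deposited table gives 0.044 for Prelp. Podn, a more distant member, had 0.95, 0.85 and 1.05 TPM in the Colq libraries and between 0.59 and 1.64 TPM in the vector libraries. The groups overlapped, the log2 fold change was -0.18 (SE 0.19; adjusted p = 0.40), and the sign was positive after size factors (0.11, adjusted p = 0.64).

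**Figure D2:**
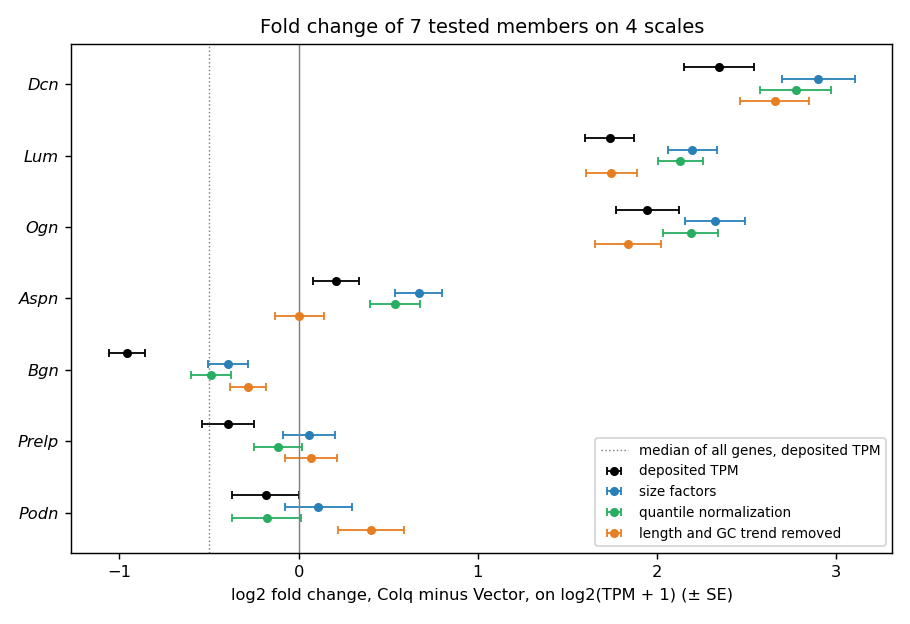
Log2 fold change, Colq minus vector, with its SE, for the 7 tested members on 4 scales (colours); the solid line is 0 and the dotted line is the median of all genes on deposited TPM, -0.50. Dcn, Lum and Ogn stand above 0 on each scale drawn, Bgn lies below 0 on each, and Aspn, Prelp and Podn move to or across 0 with the scale.

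The composition of the family changed more than its total. The 8 transcripts summed to 143.1 ± 4.70 TPM in Colq tumors, against 109.4 ± 17.6 TPM in vector tumors (SD, n = 3 each), and the vector libraries ranged from 78.7 to 144.8 TPM, so the libraries overlapped in this sum. The tumors did not, with 140.2 to 148.5 TPM in the Colq group, against 91.5 to 126.8 TPM in the vector group. This sum is on deposited TPM. Size factors, which divide TPM, were 0.77 to 0.80 in Colq libraries and 1.12 to 1.24 in vector libraries, and would widen the difference. Dcn made up 56.2% ± 0.80 of the sum in Colq tumors and 14.9% ± 2.79 in vector tumors. Bgn made up 27.7% ± 0.69 in Colq tumors and 73.1% ± 2.54 in vector tumors. The ratio of Dcn to Bgn, which no common scaling of a library can alter, was 2.03 ± 0.066 in Colq tumors and 0.205 ± 0.044 in vector tumors (exact two-sided permutation p = 0.1, the smallest possible). It lay between 1.96 and 2.10 in the Colq libraries, against 0.129 to 0.307 in the vector libraries. In Colq tumors the order of levels was Dcn, Bgn, Lum, Ogn, Aspn, Prelp, Podn and Fmod, and of neighbours in that order only Ogn and Aspn overlapped between tumors. In vector tumors it was Bgn, Dcn, Prelp, Aspn, Lum, Podn, Fmod and Ogn, and the ranges of Prelp and Aspn, of Podn and Fmod, and of Fmod and Ogn overlapped.

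**Figure D3:**
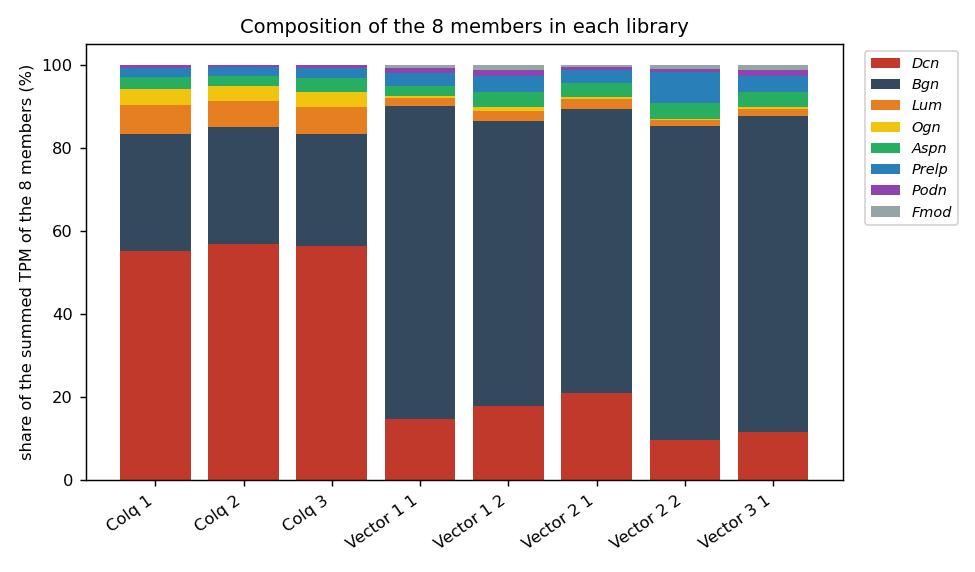
Share of the summed TPM of the 8 members (y axis, percent) taken by each member in each library, Colq libraries on the left and vector libraries, with their portions, on the right. Dcn holds the largest share in the 3 Colq libraries and Bgn in the 5 vector libraries.

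Portions of a single vector tumor gave the spread within a tumor. In vector tumor 1 the portions differed by at most 0.54 on the log2 scale, for Bgn. In vector tumor 2 they differed by 1.82 for Dcn, 1.07 for Lum, 0.69 for Bgn, 0.55 for Aspn, 0.42 for Podn, 0.37 for Prelp, 0.36 for Ogn and 0.026 for Fmod, where the median absolute difference of all tested genes was 0.22. The group differences of Dcn (2.35), Lum (1.74), Ogn (1.95), Bgn (0.96) and Fmod (0.87) were larger than the portion differences of the same gene in both tumors. Those of Aspn (0.21) and Podn (0.18) were smaller than in vector tumor 2 and larger than in vector tumor 1. The group difference of Prelp, 0.39, was only just above the 0.37 between its portions in vector tumor 2. Of these portions the second was the higher, unlike in Dcn, Lum, Bgn, Aspn, Podn and Ogn. Markers of other tissue differed between the same portions: the first portion of vector tumor 2 held 229.2 TPM of 21 skeletal muscle markers and 553.6 TPM of 17 fibroblast markers, and the second held 62.8 and 402.3 TPM. In vector tumor 1 the muscle markers summed to 92.9 and 205.1 TPM and the fibroblast markers to 567.6 and 444.3 TPM, and Dcn differed by 0.13 on the log2 scale. The 3 Colq tumors spanned only 0.059 (Lum) to 0.31 (Aspn) on the log2 scale. Over all tested genes, pairs of Colq tumors had a median absolute difference of 0.11 on the log2 scale, which was less than that of the portions of 1 vector tumor, 0.14 and 0.22. With the Colq libraries averaged to 1 sample, limma gave adjusted p = 0.012, 0.011, 0.011 and 0.016 for Dcn, Lum, Ogn and Bgn. That fit measures no spread among Colq tumors and assumes that the lone sample varies like the vector tumors.

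**Figure D4:**
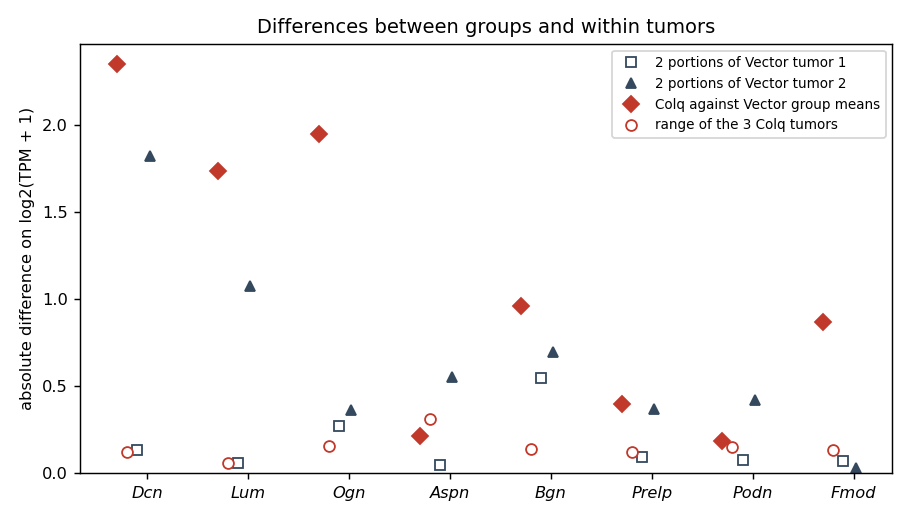
Absolute differences on log2(TPM + 1) for each member: Colq against vector group means (filled diamonds), the range of the 3 Colq tumors (open circles), and the portions of vector tumors 1 (squares) and 2 (triangles). For every member except Aspn and Podn the group difference exceeds both portion differences. For Dcn it is 2.35 against 1.82 in vector tumor 2, and for Prelp, where the margin is least, 0.39 against 0.37.

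Markers of the tissues that could hold these transcripts were counted in the same way, beside the 11.3% of all genes that rose and the 59.6% that fell on deposited TPM. Of 17 fibroblast markers 9 rose and 5 fell (median log2 fold change 0.42), and their summed level was 564.3 to 579.5 TPM in Colq tumors, against 443.0 to 505.9 TPM in vector tumors. Of 14 markers of adventitial fibroblasts, the cells that sheathe vessels and tissue planes, 11 rose and 1 fell (median 1.10), and their sum was 480.5 to 508.9 TPM in Colq tumors, against 148.1 to 257.1 TPM in vector tumors. Of 19 tested skeletal muscle markers 17 rose and 0 fell (median 3.04), with sums of 1096 to 1116 TPM in Colq tumors, against 77.7 to 149.0 TPM in vector tumors. None of these 3 lists had a marker at 0 in all libraries of a group. Of 7 tested tendon and fascia markers 0 rose and 4 fell, among them Thbs4, at 0.537 ± 0.012 TPM in Colq tumors, against 5.50 ± 2.53 TPM in vector tumors (SD, n = 3 each), and 5 of the 12 in the table were too low to test. That share of falls is near the one over all genes. Thbs4 entered the test only through its level in vector tumors. Melanoma markers, which identify the line, summed to 11815 to 12139 TPM in Colq tumors, against 19305 to 23889 TPM in vector tumors. Of 11 tested endothelial markers 0 rose and 9 fell, of 11 pericyte and smooth muscle markers 1 rose and 7 fell (a share of falls near that over all genes), and of 12 leukocyte markers 3 rose and 0 fell. The 14 leukocyte markers in the table summed to 993.1 to 1002 TPM in Colq tumors, against 244.2 to 387.0 TPM in vector tumors. The endothelial markers summed to 118.6 to 129.3 TPM in Colq tumors, against 299.8 to 313.7 TPM in vector tumors. Of 10 keratinocyte markers 5 rose and 2 fell, of 8 Schwann cell markers 2 rose and 3 fell, of 5 adipocyte markers 1 rose and 0 fell, and of 4 cartilage and bone markers 1 rose and 2 fell. After size factors, with 28.3% and 25.6% of all genes up and down, the counts that rose and fell were 10 and 3 for fibroblast, 11 and 0 for adventitial, 18 and 0 for muscle, and 0 and 3 for tendon and fascia markers. On that scale they were 0 and 8 for endothelial, 1 and 5 for pericyte, 4 and 0 for leukocyte, and 3 and 5 for melanoma markers. They were 5 and 0 for keratinocyte, 4 and 1 for Schwann cell, 4 and 0 for adipocyte, and 2 and 1 for cartilage and bone markers. The part of these tissues in the proteoglycan differences was not tested. Measured against the mean of the 17 fibroblast markers on the log2 scale, Dcn was still higher in Colq tumors (2.50 ± 0.05 against 0.45 ± 0.26 in vector tumors; SD, n = 3 each), as were Lum (by 1.44) and Ogn (by 1.66). Bgn was lower by this measure (difference -1.25), as were Fmod, Prelp and Podn, while Aspn overlapped. Measured against the 14 adventitial markers, the differences of Dcn, Lum and Ogn shrank to 1.01, 0.40 and 0.61, and that of Bgn was -2.29. Measured against 11 collagen partners, whose mean log2 level differed by -0.66, Bgn differed by -0.30, Dcn by 3.01, Lum by 2.39, Ogn by 2.60, Aspn by 0.87 and Podn by 0.47. Prelp (0.26) and Fmod (-0.21) overlapped by that measure, so the directions of Aspn, Prelp and Podn depend on the genes they are set against. Each of these comparisons whose groups did not overlap had an exact two-sided permutation p of 0.1, the smallest possible.

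Genes whose profile over the 8 libraries was most like that of a member were found by the root mean square difference of centred log2 values, among 9824 genes with a mean of at least 5 TPM. For Bgn these were the collagen genes Col1a1 (0.096) and Col6a1 (0.12). For Dcn they were Mybpc2 (0.23) and Pgam2 (0.23), which encode a myosin-binding protein and a glycolytic enzyme of skeletal muscle. For Lum they were Plscr2 (0.14) and Ifi205 (0.18), and for Ogn mt-Nd3 (0.16) and Plscr2 (0.22). For Aspn they were Rpl23a (0.084) and Rras2 (0.087), for Prelp Zfp821 (0.075) and Nxn (0.077), and for Podn Htatip2 (0.10) and Nip7 (0.11). From Dcn, the distance was 0.36 to Lum, 0.44 to Ogn and 1.61 to Bgn, and from Lum it was 0.23 to Ogn. A small difference is easier to reach for a flat profile, so these values rank neighbours of 1 member and do not compare members. The libraries share tumors and groups, so a like difference between groups is a large part of a small distance. That difference was 2.20 for Mybpc2 and 2.27 for Pgam2, against 2.35 for Dcn. Mybpc2, Pgam2 and Plscr2 reached the minimum of 5 TPM only through Colq tumors, with means of 1.3, 3.3 and 2.7 TPM in vector tumors. A link of these genes to the members was not tested.

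Other leucine-rich family genes were mostly low. Of 9 further family members 8 were in the table and 2 were tested. Tsku, a secreted relative, stood at 2.86 ± 0.24 TPM in Colq tumors, against 4.60 ± 0.57 TPM in vector tumors (SD, n = 3 each), a log2 fold change of -0.52 (adjusted p = 0.0086) that was -0.077 after size factors (adjusted p = 0.63). Optc, the neighbour of Prelp on chromosome 1, had a log2 fold change of -0.51 and did not pass (adjusted p = 0.060). Omd, which lies between Aspn and Ogn, had 0.15, 0.27 and 0.23 TPM in the Colq libraries and between 0 and 0.07 TPM in the vector libraries. Ecm2, Podnl1, Chad, Nyx and Epyc averaged under 0.6 TPM in each group. Of the 6 tested leucine-rich relatives outside the family 1 rose and 4 fell, and after size factors 1 rose and 2 fell. The fallers before size factors included Lrrc32, which presents latent TGF-beta (-1.08), and the axon guidance gene Slit2 (-1.37). Falls made up 59.6% of the whole tested set before size factors and 25.6% with them, while rises made up 11.3% and 28.3%. The falls among the relatives were near those shares on both scales. The relatives were not tested against other genes.

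Among the enzymes that build the sugar chains, most of those tested fell on deposited TPM and fewer did so after size factors. Of 9 genes for the linker to which chains are attached 0 rose and 7 fell (median -0.61), among them Xylt1, the xylosyltransferase that starts a chain, at 1.17 ± 0.10 TPM in Colq tumors, against 3.70 ± 0.35 TPM in vector tumors (SD, n = 3 each). After size factors 3 rose and 2 fell (median -0.043). Of 11 tested chondroitin and dermatan sulfate enzymes 0 rose and 7 fell (median -0.64), and after size factors 1 rose and 2 fell (median -0.12). Those were Chsy3 (-0.56 after size factors) and Chpf (-0.47), both of chain polymerisation. Of 4 tested keratan sulfate enzymes 0 rose and 3 fell, with St3gal1 at -0.96, and after size factors 1 rose and 2 fell. These counts stand beside the 59.6% of all genes that fell on deposited TPM and their median of -0.50, and no test set the enzymes against other genes.

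Collagens that the proteoglycans coat were lower in part. Of 11 tested 1 rose and 8 fell (median -0.86), and after size factors 1 rose and 5 fell (median -0.33). The shares over all tested genes were 11.3% up and 59.6% down on deposited TPM, and 28.3% and 25.6% after size factors. Col12a1, a fibril-associated collagen, had the largest decrease, at 1.41 ± 0.21 TPM in Colq tumors, against 8.82 ± 1.50 TPM in vector tumors (SD, n = 3 each; log2 fold change -1.99, adjusted p = 3.0e-05, and -1.58 after size factors). Col1a1, the main chain of type I collagen, stood at 45.5 ± 2.49 TPM in Colq tumors, against 87.2 ± 7.02 TPM in vector tumors (-0.91, and -0.34 after size factors), while Col3a1 stood at 142.3 TPM in Colq tumors, against 78.5 TPM in vector tumors, a rise of 0.91. With the length and GC trend removed 4 of the 11 rose and 2 fell, against 18.9% and 26.5% of all genes. Of 21 tested genes of fibril assembly and cross-linking 2 rose and 15 fell, with the lysyl hydroxylase Plod1 at -1.37, and after size factors 3 rose and 6 fell. Col3a1 falls outside the rule for named genes and was named after its values were seen.

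Growth factors and receptors reported to bind these proteins fell in 16 of 19 tested cases and rose in 1 (median -0.86). After size factors 2 rose and 8 fell. Beside these counts and those of the proteases below, 11.3% of all tested genes rose and 59.6% fell on deposited TPM (median -0.50). After size factors the shares were 28.3% and 25.6%. No test set these lists against other genes. Ccn2, a matricellular growth factor, stood at 4.83 ± 0.12 TPM in Colq tumors, against 23.2 ± 3.01 TPM in vector tumors (SD, n = 3 each; -2.04, adjusted p = 1.4e-05), and Tgfb3 at 3.15 ± 0.16 TPM in Colq tumors, against 10.7 ± 0.64 TPM in vector tumors (-1.49). The endothelial receptor Kdr (-1.64) and the collagen-binding integrin subunit Itga1 (-1.45) fell too, and all 4 passed after size factors. Proteases reported to cleave these proteins divided: of 14 tested 5 rose and 4 fell (median 0.30), and after size factors 8 rose and 3 fell. Mmp12, the macrophage metalloelastase, rose to 35.2 ± 2.20 TPM in Colq tumors, against 14.6 ± 2.23 TPM in vector tumors. Adamts4, an aggrecanase, fell to 4.86 ± 0.68 TPM in Colq tumors, against 16.5 ± 1.06 TPM in vector tumors, and Adamts1 (-1.49) and Mmp14 (-1.29) fell as well (SD, n = 3 each).

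Proteoglycans of other families were compared to see whether the rise of Dcn, Lum and Ogn had a parallel there. Of 7 tested matrix proteoglycans and link proteins 1 rose and 4 fell (median -0.96), and after size factors 1 rose and 3 fell. Hspg2, perlecan of basement membranes, stood at 10.7 ± 0.82 TPM in Colq tumors, against 42.7 ± 1.79 TPM in vector tumors (SD, n = 3 each; log2 fold change -1.91, adjusted p = 9.7e-06), and the link protein Hapln1 had -1.38. Of 12 tested cell-surface proteoglycans 0 rose and 9 fell (median -0.81), and after size factors 2 rose and 4 fell. Cd44, the hyaluronan receptor, stood at 102.1 ± 1.85 TPM in Colq tumors, against 241.8 ± 22.5 TPM in vector tumors (SD, n = 3 each; -1.23), and Gpc1, a glypican, had -0.97. Over all tested genes 28.3% rose and 25.6% fell after size factors, and 11.3% rose and 59.6% fell on deposited TPM. The counts of matrix proteoglycans on deposited TPM were near the shares on that scale. No test set the family against these lists.

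**Figure D5:**
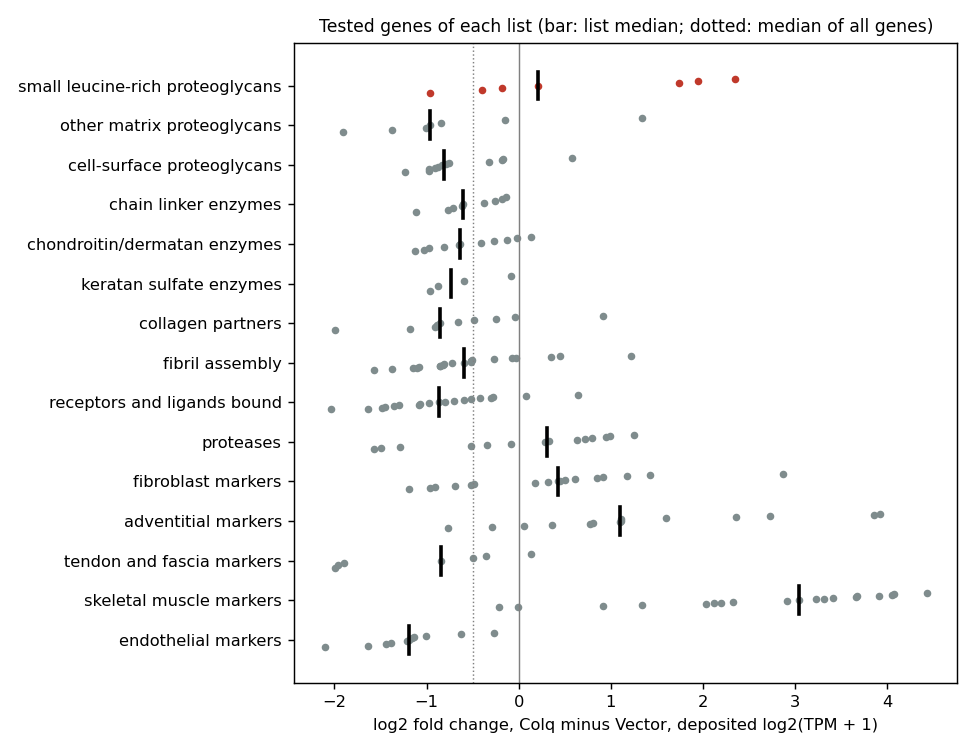
Log2 fold change, Colq minus vector, on deposited log2(TPM + 1) (x axis) of each tested gene in 15 lists; bars are list medians, the solid line is 0 and the dotted line is the median of all genes, -0.50. The small leucine-rich proteoglycans (red) run from -0.96 for Bgn to 2.35 for Dcn.

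As a check of the labels, Colq itself had 4.05, 5.03 and 3.86 TPM in the Colq libraries, against 0 to 0.24 TPM in the vector libraries. Skeletal muscle markers, whose tissue also expresses Colq, rose in the same tumors, and their part in the Colq level was not tested. The libraries held between 19887 and 21602 genes above 0, and TPM keeps no depth, so the reads behind each value are unknown.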

How the data were processed

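Each deposited expression value is a log2 of TPM + 1, as its back-transformed 2 decimals show. The authors quantified with RSEM on mm39, per the submitters' processing notes; aligner and annotation, not given in the sources used here, stay unnamed. Libraries were not directional, per the labels' protocols, so reads of overlapping antisense genes are not told apart. The authors' deposited comparison holds log2 fold changes with standard errors, Wald scores and p-values, per the file headers. The authors made it with DESeq2, per the submitters' processing notes. With its input libraries not given in the sources used here, its direction was read from Colq. Its log2 values, and the adjusted p of Aspn, were copied.

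Groups and tumor numbers came from the sample titles. Portions were averaged on the log2 scale for tests and as TPM for means, shares and ratios, so an SD over vector tumors leaves out the spread between portions. Genes with a mean of at least 1 TPM over 6 tumors were tested with limma 3.58.1 in R 4.3.3 (trend), with Benjamini-Hochberg adjustment over all 13726; fold changes are Colq minus vector. For single values, tumor labels were permuted exactly (two-sided). Exonic length (all exons merged) and GC content (of the longest transcript) came from GENCODE M21 (GRCm38) for 96.2% of tested genes, and their trend was removed by loess (span 0.5). The loess was fitted to the log2 fold changes of Colq minus vector, and its fitted values were subtracted from the Colq tumors only. That scale is therefore not blind to the groups, and its p-values leave out the error of the loess. On simulated data for these 13726 genes with the fold of 100 genes changed by 1 and of 100 by 2 (log2), 79% and 93% were recovered, with 7 false calls. The simulation drew independent normal values, with the same SD in both groups and no shift common to all genes. In the real data 70.9% of tested genes passed, so the simulated false calls do not measure the error rate there. Members, lists and tests were chosen with earlier results of these data known. Named genes were the 8 members, Colq, the tested family relatives, up to 4 genes per list by smallest p, and the 2 most alike genes per member; not every gene so picked is named. Immune receptor measures were not used here. Descriptions used Python 3.11.15, numpy 2.4.6, pandas 2.3.3 and matplotlib 3.10.9.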

Additional observations from a re-analysis of the deposited data

How the results depend on the processing

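Dcn, Lum and Ogn kept their direction and passed under all 22 (Dcn and Lum) and 21 (Ogn) alternatives that tested them, with log2 fold changes of 2.02 to 2.90, 1.57 to 2.20 and 1.84 to 2.96. The call of Bgn was lost once, with the length and GC trend removed (-0.28). Aspn passed after size factors (0.67) and quantile normalization (0.54). Prelp turned to 0.057 after size factors and to 0.072 with the trend removed. Its call was lost with no filter and with the Colq libraries as 1 sample (-0.39 in both), with quantile normalization (-0.11), when TPM was rescaled without mitochondrial, immunoglobulin and haemoglobin genes (-0.36), and with first (-0.35) or second portions (-0.44). Leaving out single tumors gave Prelp values between -0.51 and -0.29, and the call stood only without vector tumor 3. Podn, never called, turned to 0.11 after size factors and 0.40 with the trend removed. Fmod moved to -2.43 and -1.32 with pseudocounts of 0.1 and 0.5, which by construction weigh low values more, and had no value with quantile normalization, the trend removed, robust moderation or the block fits. The number of members that fell was 2. It was 0 with the trend removed, 1 to 2 without single tumors, and 1 at a mean of at least 5 TPM, where only 3 members are tested, as well as with size factors, quantile normalization, rescaling, first or second portions, the replicate block or the Colq libraries as 1 sample. Over all genes 1556 rose and 8181 fell. These counts became 3883 and 3513 after size factors, 3180 and 4194 with quantile normalization and 2499 and 3501 with the trend removed, and 788 genes rose with the Colq libraries as 1 sample, an alternative chosen after seeing the data that has fewer samples. Causes of the other changes were not tested.

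The replicate block used the tumor numbers of the titles, and the labels do not say that same-numbered tumors are paired. Deviations of same-numbered tumors correlated at 0.030, 0.0070 and 0.044 over genes, though 5 of 6 tumors correlated best with their own number. These values do not settle whether the tumors are paired. With the replicate block 1526 genes rose and 7928 fell, and Prelp (-0.39, adjusted p = 0.076) lost its call. Among members at or near 1 TPM the unknown depth limits what can be said.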

Other observations

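Lrrc17 and Lrrc15, leucine-rich relatives that were under the filter on low values, differed in opposite directions. Lrrc17 averaged 1.43 TPM in Colq tumors, against 0.293 TPM in vector tumors. Lrrc15, known from contractile tumor fibroblasts, averaged 0.257 TPM in Colq tumors, against 1.39 TPM in vector tumors. Neither entered the main test. In the fit with no filter limma gave adjusted p = 0.0028 for Lrrc17 and 0.00078 for Lrrc15. Both were named after their values were seen.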
